A study of Mus musculus with 9 samples.

Results

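The genes described here were 9 that code for enzymes of the mitochondrial tricarboxylic acid (TCA) cycle in the mouse heart: Cs, Idh2, Idh3a, Idh3b, Idh3g, Ogdh, Sucla2, Fh1 and Mdh2. They were taken by gene symbol from a table of read counts with 54532 gene identifiers, and all 9 were measured and passed the filter on low counts in every comparison. RNA was sequenced from heart tissue of male wild-type mice of the C57BL/6J strain, 8 to 10 weeks of age, with 3 hearts in each of 3 groups and each library labelled as a separate animal. Sham mice had the chest opened and a thread passed under the left anterior descending coronary artery without being tied. Mice with myocardial ischemia/reperfusion injury (MIRI) had that artery tied for 30 min and then reopened for 24 h, and received saline. GXNI mice had the same operation and 9 mL/kg of Guanxinning injection, a herbal preparation of Danshen and Chuanxiong, given through the tail vein early in ischemia. The paper states that every group, sham included, received a tail vein injection of either drug or normal saline. The comparison of MIRI with sham asked what the injury did to these genes, and that of GXNI with MIRI asked what the injection did. The area tied off is only a part of the ventricle, and the region of the heart that was sequenced is not given in the sources used here.

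The TCA cycle oxidises acetyl-CoA in the mitochondrial matrix and passes electrons to the respiratory chain as NADH and FADH2. The heart relies on it for nearly all of its ATP, and its enzymes are therefore abundant in cardiomyocytes. Citrate synthase (Cs) starts the cycle. Isocitrate is oxidised either by the NAD+-dependent complex of Idh3a, Idh3b and Idh3g or by the NADP+-dependent Idh2, which makes NADPH for antioxidant defence. Ogdh is the first component of the 2-oxoglutarate dehydrogenase complex, Sucla2 is the ATP-forming subunit of succinyl-CoA ligase, Fh1 is fumarase and Mdh2 is malate dehydrogenase.

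The libraries held between 17119454 and 22811295 counts. Values are given as CPM (read counts divided by library size, scaled with edgeR's TMM factors). The labels name the cells as cardiomyocytes, whereas endothelial, fibroblast and macrophage genes were also read (summed CPM of 1024 to 1513 over 7 endothelial, 703 to 1886 over 8 fibroblast and 440 to 892 over 10 macrophage genes), so the values describe heart tissue. In bulk tissue, fewer cardiomyocytes and less RNA per cardiomyocyte cannot be told apart. Libraries of the operated groups did not all lie with their own group. On the first principal component of 8695 genes, which held 75.6% of the variance, the sham libraries lay between -39.8 and -34, the library labelled MIRI 2 at -26 and GXNI 1 at -25.2, while GXNI 2 lay at 11.1, MIRI 1 at 38.2, MIRI 3 at 52.6 and GXNI 3 at 59.5. By Spearman correlation over these genes, the nearest library to that labelled MIRI 2 was GXNI 1, and the nearest to that labelled GXNI 3 was MIRI 3. Whether those labels are right was not tested. All comparisons below use the labels as given, and those of the 9 members are also given without the libraries that lay apart from their group.

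Levels of different genes can be compared only per length. Expressed per kilobase of summed exon length, Idh2 was the most abundant in sham hearts at 618 ± 14.9 CPM per kb (SD, n = 3), followed by Ogdh at 318 ± 7.14 and Mdh2 at 270 ± 6.31. Idh3b at 209 ± 2.03 and Cs at 203 ± 6.82 came next, and these neighbours overlapped. Sucla2 stood at 141 ± 7.25, Idh3g at 122 ± 1.37, Fh1 at 115 ± 3.01 and Idh3a at 91.9 ± 4.52 CPM per kb. Apart from Idh3b and Cs, no neighbours in this order overlapped between sham libraries. Idh2 was again highest in GXNI hearts, without overlap, and had the highest mean in MIRI hearts, where its lowest library, at 317 CPM per kb, lay under the highest of Ogdh, at 325. Mdh2 had a higher mean than Ogdh in both groups, and every further neighbour pair overlapped. The exon length counts all annotated isoforms, so a gene with long rarely used exons is understated on this scale.

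**Figure D1:**
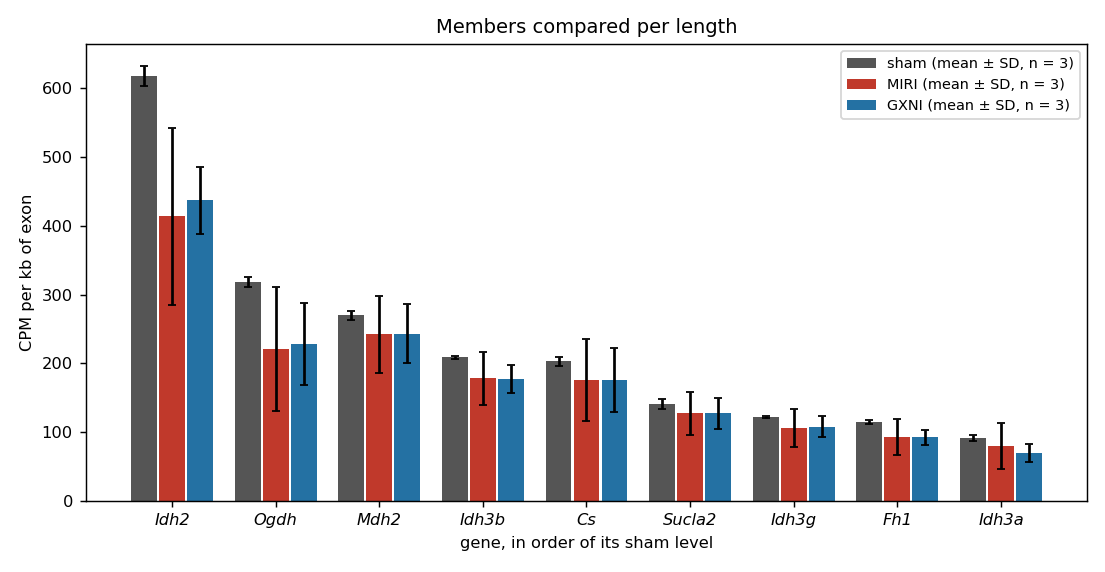
Level of each gene in CPM per kb of summed exon length (vertical axis) by gene (horizontal axis, in order of the sham level); bars are means and error bars the SD of 3 libraries per group. Idh2 stands highest in each group, at 618 CPM per kb in sham, and the error bars of MIRI and GXNI are wider than those of sham.

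Cs (chr10:128337734-128362479, forward strand, GRCm38) had 1167, 1140 and 1217 CPM in the sham libraries, 815, 1417 and 821 in MIRI 1 to 3, and 1285, 1019 and 747 in GXNI 1 to 3. The library labelled MIRI 2 and GXNI 1 were above every sham library, and the other 4 operated hearts were below every sham library. Its copies Csl and Gm48254, which matched it at 91.9% and 92.1% identity, took 3 and 4 counts over the 9 libraries. How reads that match several places were counted is not given in the sources used here.

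Idh2 (chr7:80094846-80115392, reverse strand) gave the clearest separation from sham. It had 1579, 1643 and 1573 CPM in sham, 820, 1450 and 941 in MIRI and 1266, 1111 and 1018 in GXNI. Every operated heart, the library labelled MIRI 2 included, lay below the lowest sham heart. Idh2 was the only one of the 9 members for which the 6 operated hearts and the 3 sham hearts did not overlap.

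The 3 subunits of the NAD+-dependent enzyme did not follow Idh2 in that respect. Idh3a (chr9:54586334-54604661, forward strand), the catalytic subunit, had 440, 485 and 472 CPM in sham, 286, 595 and 333 in MIRI and 413, 356 and 288 in GXNI. Idh3b (chr2:130279309-130284547, reverse strand), a regulatory subunit, had 712, 710 and 723 CPM in sham, 547, 760 and 518 in MIRI and 662, 632 and 528 in GXNI. Idh3g (chrX:73778963-73786897, reverse strand), the other regulatory subunit, had 332, 325 and 331 CPM in sham, 244, 370 and 242 in MIRI and 327, 302 and 245 in GXNI. For all 3 the library labelled MIRI 2 was the highest of the 9, and MIRI 1, MIRI 3 and GXNI 3 were the lowest. Exons of Idh3b overlap those of Nop56 on the opposite strand, and the strand setting of the counting is not given in the sources used here. Nop56 held 7091 counts over the 9 libraries against 112893 for Idh3b.

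Ogdh (chr11:6291633-6356642, forward strand) spread most among the operated hearts. It had 1774, 1697 and 1727 CPM in sham, 907, 1773 and 934 in MIRI and 1474, 1381 and 873 in GXNI. The library labelled MIRI 2 lay within the sham range, the other 5 operated hearts below it, and GXNI 3 held about as little as MIRI 1 and MIRI 3.

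Sucla2 (chr14:73525319-73596142, forward strand) had 549, 596 and 543 CPM in sham, 446, 650 and 419 in MIRI and 591, 517 and 408 in GXNI. Fh1 (chr1:175600374-175625635, reverse strand) had 387, 402 and 383 CPM in sham, 286, 413 and 242 in MIRI and 338, 332 and 268 in GXNI. Mdh2 (chr5:135778480-135790398, forward strand) had 958, 944 and 988 CPM in sham, 709, 1090 and 786 in MIRI and 978, 932 and 692 in GXNI. In each of these the library labelled MIRI 2 was the highest of all 9 and above every sham library. The GXNI 1 value lay within the sham range for Sucla2 and Mdh2 and below it for Fh1.

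**Figure D2:**
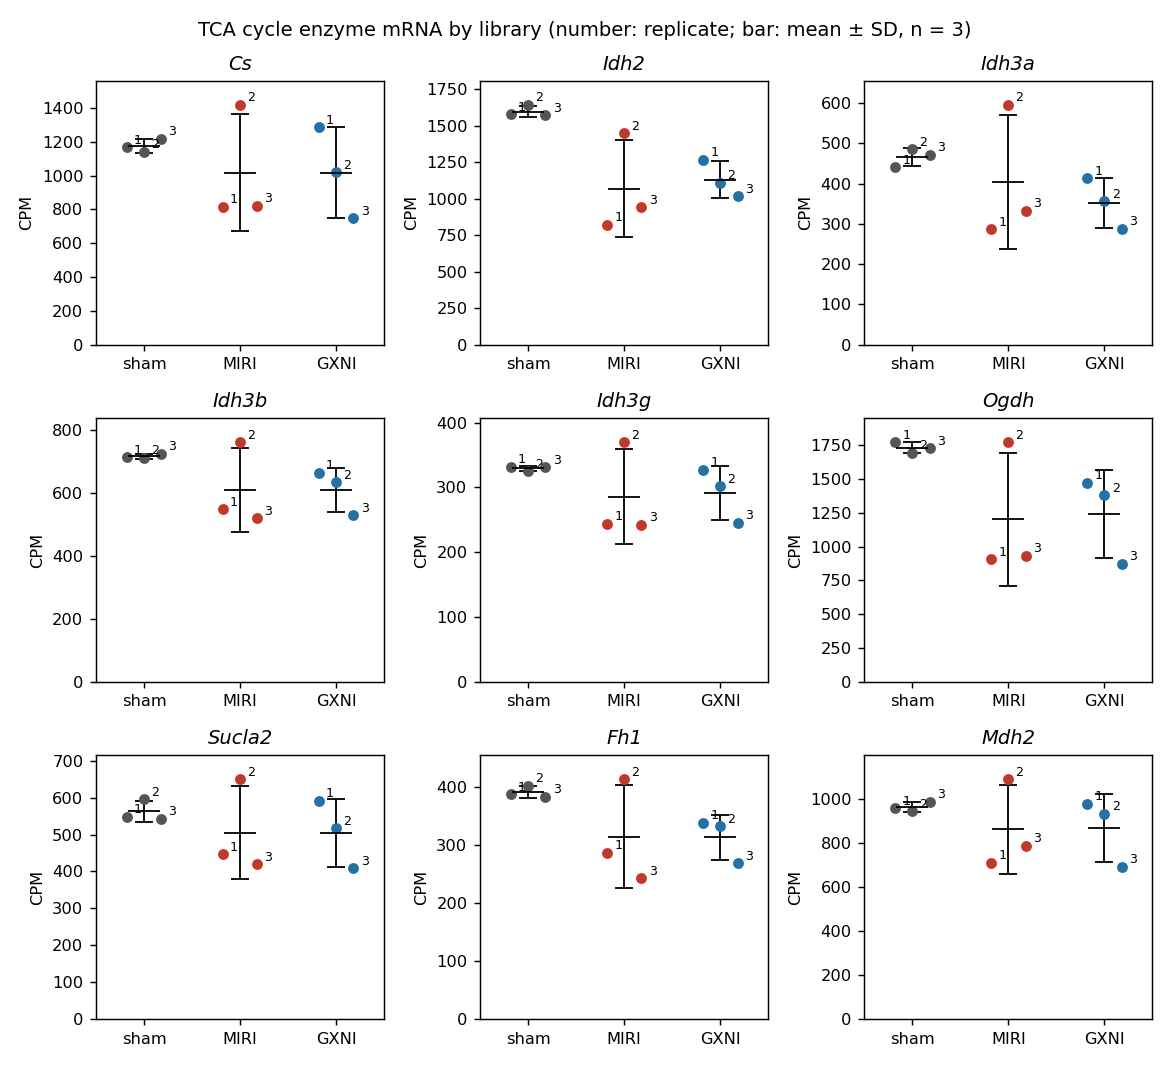
CPM (vertical axis, from 0) of each gene by group (horizontal axis); points are single libraries with their replicate number, and the bar shows the mean ± SD of 3. The library labelled MIRI 2 sits above every sham point for 7 of the 9 genes, whereas for Idh2, at 1450, it lies under the lowest sham point of 1573.

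Across the 9 genes, MIRI 1 had a median of 73.2% of the sham mean (range 51.3 to 79.2%), MIRI 3 a median of 71.4% (53.9 to 81.6%) and GXNI 3 a median of 68.5% (50.4 to 74.4%). These 3 libraries were the lowest of the 9 libraries for 9 of 9 genes. GXNI 2 had a median of 86.8% (69.5 to 96.7%) and was below every sham library for 9 of 9 genes, and GXNI 1 had a median of 92.7% (79.2 to 109%) and was below every sham library for 5 of 9. The library labelled MIRI 2 had a median of 113% (90.8 to 128%) and was above every sham library for 7 of 9. The SD of log2 CPM among the 6 operated hearts was 0.219 (Idh3b) to 0.435 (Ogdh), against 0.014 (Idh3b) to 0.0731 (Sucla2) among sham hearts. Over 8695 genes with a mean of at least 10 CPM the median SD was 0.266 among operated and 0.106 among sham hearts, so the sham values of all 9 members were closer together than those of the median gene. The members, at 325 CPM or more in sham, were not matched in level to these genes, and the SD also depends on level.

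In MIRI against sham, all 9 genes had lower means in MIRI, and none passed the call (1.5-fold or more, with an edgeR p of 0.01 or less before adjustment). Of all 14644 genes tested, 2.82% were called lower. DESeq2 also called 0 of 9. At an edgeR p under 0.05 there was 1 of 9, Idh2, where 11.5% of genes were lower by that rule. The log2 fold changes of the members ran from -0.57 to -0.14 with a median of -0.20, beside a median of -0.0015 over all genes tested. Idh2 had the largest difference (log2 fold change -0.57 ± 0.23 SE, edgeR adjusted p = 0.171 over all genes). Ogdh followed with -0.51 ± 0.28 (edgeR adjusted p = 0.267) and Fh1 with -0.30 ± 0.21 (edgeR adjusted p = 0.364). Sucla2 had the smallest, -0.14 ± 0.20 (edgeR adjusted p = 0.642). Of the 9 genes, 1 (Idh2) did not overlap between the groups, whereas 17% of all genes tested were without overlap in this direction.

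Without the library labelled MIRI 2, the same comparison gave falls in all 9 genes at an edgeR adjusted p of at most 0.05, where 20.3% of 15207 genes fell by that rule, and 3 of 9 members were called lower, where 13.3% of genes were. Ogdh fell by 0.91 ± 0.10 on the log2 scale (1.88-fold, edgeR adjusted p = 0.00056), Idh2 fell by 0.86 ± 0.11 (1.81-fold, edgeR adjusted p = 0.000981) and Idh3a fell by 0.59 ± 0.11 (1.5-fold, edgeR adjusted p = 0.00558). The other 6 were under the required fold: Fh1 with -0.56 ± 0.12, Cs with -0.52 ± 0.10, Idh3g with -0.43 ± 0.10, Idh3b with -0.42 ± 0.10, Sucla2 with -0.38 ± 0.10 and Mdh2 with -0.36 ± 0.10. The median of the 9 was -0.52, beside -0.01 over all genes tested. This library was left out because its whole profile stood apart, and as it was also the highest MIRI library for all 9 members, leaving it out could only lower their MIRI means.

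**Figure D3:**
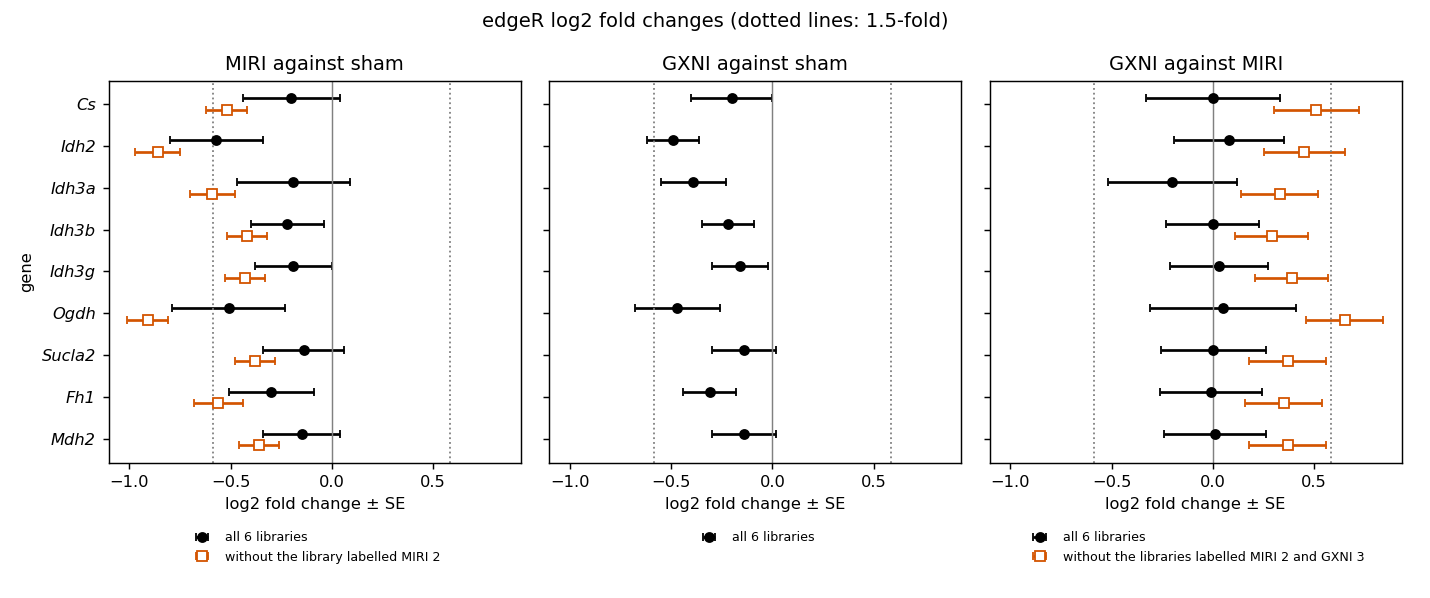
Log2 fold change ± SE from edgeR (horizontal axis) of each gene (vertical axis) in 3 comparisons; filled circles use all 6 libraries, open squares leave out the libraries named under each panel, and dotted lines mark 1.5-fold. All circles lie left of 0 in MIRI and GXNI against sham, and the circles of GXNI against MIRI lie between -0.20 and 0.08.

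In GXNI against sham, the 9 genes were again lower on average and again 0 of 9 were called, where 1.54% of 14695 genes were called lower. DESeq2 also called 0 of 9, and 2 of 9 (Idh2 and Idh3a) had an edgeR p under 0.05, where 7.56% of genes were lower by that rule. The log2 fold changes ran from -0.49 to -0.14 with a median of -0.22, beside 0.01 over all genes tested. Idh2 passed the p of the call but not its fold (-0.49 ± 0.13, 1.4-fold, edgeR adjusted p = 0.219). Ogdh had -0.47 ± 0.21 (edgeR adjusted p = 0.259) and Idh3a -0.39 ± 0.16 (edgeR adjusted p = 0.246). Idh2, Idh3a, Idh3b, Ogdh and Fh1 did not overlap between the groups, which makes 5 of 9, where 15.9% of all genes were without overlap in this direction. Leaving out GXNI 1, the GXNI library nearest to sham, gave a median of -0.37, and 9 of 9 members did not overlap, where 29.4% of 14990 genes did not. In that fit 0 of 9 were called, where 7.08% of genes were called lower. Idh2 (-0.58 ± 0.11, edgeR adjusted p = 0.0257) and Idh3a (-0.52 ± 0.13, edgeR adjusted p = 0.0453) fell at an adjusted p of at most 0.05, where 7.21% of genes fell by that rule. Leaving out the library labelled GXNI 3 gave a median of -0.14 and 0 of 9 called, where 1.46% of genes were, and 5 of 9 did not overlap, where 18.6% of genes did not. There Idh2 had -0.42 ± 0.11, Ogdh -0.27 ± 0.10 and Cs, Mdh2 and Sucla2 -0.02 to -0.01. GXNI 1 was the highest and GXNI 3 the lowest GXNI library for all 9 genes, so each omission could move the means only 1 way. MIRI and GXNI were set against the same 3 sham hearts, so these lists of differences are not independent of each other.

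GXNI against MIRI, the comparison that holds the injection, gave log2 fold changes from -0.20 (Idh3a, ± 0.32) to 0.08 (Idh2, ± 0.27), a median of 0.0028 and edgeR p-values of 0.565 or more. Of the 9 genes 0 were called by edgeR or by DESeq2 and 0 had a p under 0.05, where 0.0203% of 14762 genes, 3 in number, were called in either direction by edgeR. All 9 overlapped between the groups. Ogdh had 0.05 ± 0.36 and Cs 0.0017 ± 0.33, and a p of this size does not show that the groups were alike.

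The library labelled MIRI 2 was the highest MIRI library and that labelled GXNI 3 the lowest GXNI library for all 9 genes, so leaving out both can only move GXNI up against MIRI, and the direction that follows is no sign of an effect. Without these libraries all 9 genes had higher means in GXNI, by 0.29 (Idh3b) to 0.65 (Ogdh) on the log2 scale with a median of 0.37, beside 0.0029 over all genes tested. None was called, where 1.52% of 14984 genes were called higher. Ogdh had 0.65 ± 0.19 (edgeR adjusted p = 0.206), Cs 0.51 ± 0.21 (edgeR adjusted p = 0.265) and Idh2 0.45 ± 0.20 (edgeR adjusted p = 0.283). The groups did not overlap for 9 of 9 genes, and 27.5% of all genes were without overlap in that direction between these 2 and 2 libraries. Without the library labelled MIRI 2 alone, the values were 0.20 to 0.45 with a median of 0.25 and 2 of 9 genes (Idh2 and Idh3g) did not overlap, where 5.47% of all genes did not in that direction.

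With all 6 operated hearts against sham, 0 of 9 genes were called lower, where 2.85% of 15207 genes were. Idh2 came closest (-0.53 ± 0.18, 1.45-fold, edgeR adjusted p = 0.106), and it was the only member without overlap, where 8.89% of all genes were without overlap in this direction. Ogdh had -0.50 ± 0.24 (edgeR adjusted p = 0.192) and Mdh2 and Sucla2 the smallest differences at -0.15. Without the library labelled MIRI 2, Idh2 was called (-0.63 ± 0.15, edgeR adjusted p = 0.0429), where 4.76% of genes were called lower. Without the libraries labelled MIRI 2 and GXNI 3 it was called as well (-0.62 ± 0.16, edgeR adjusted p = 0.0794), where 3.24% of genes were. No other member was called in either case.

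The members also shifted relative to one another inside each library, a measure in which any factor common to all 9 cancels. The log2 CPM of each gene was set against the mean of the other 8, with the sham mean at 0. Idh2 was lower in all 6 operated hearts, at -0.44, -0.31 and -0.24 in MIRI 1 to 3 and -0.27, -0.32 and -0.07 in GXNI 1 to 3, against -0.03 to 0.03 in sham. Ogdh was also lower in all 6, at -0.40, -0.12 and -0.38 in MIRI and -0.16, -0.10 and -0.44 in GXNI, against -0.05 to 0.05 in sham. The largest relative loss of Idh2 was in MIRI 1, and that of Ogdh in GXNI 3, the library in which Idh2 moved least. On the other side, Idh3g lay at 0.04 to 0.19 in operated hearts against -0.03 to 0.03 in sham, and Mdh2 at 0.04 to 0.29 against -0.04 to 0.04, with the lowest operated value just above the highest sham value. Each value depends on the other 8, so the falls of Idh2 and Ogdh by themselves raise the rest. The rises of Idh3g and Mdh2 on this scale are thus not separate from those falls. The remaining 5 members overlapped. Set against the mean of the 9 members in the same way, 3.91% of all 15207 genes tested were lower and 9.65% higher in all 6 operated hearts. These shifts were looked at without a test.

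**Figure D4:**
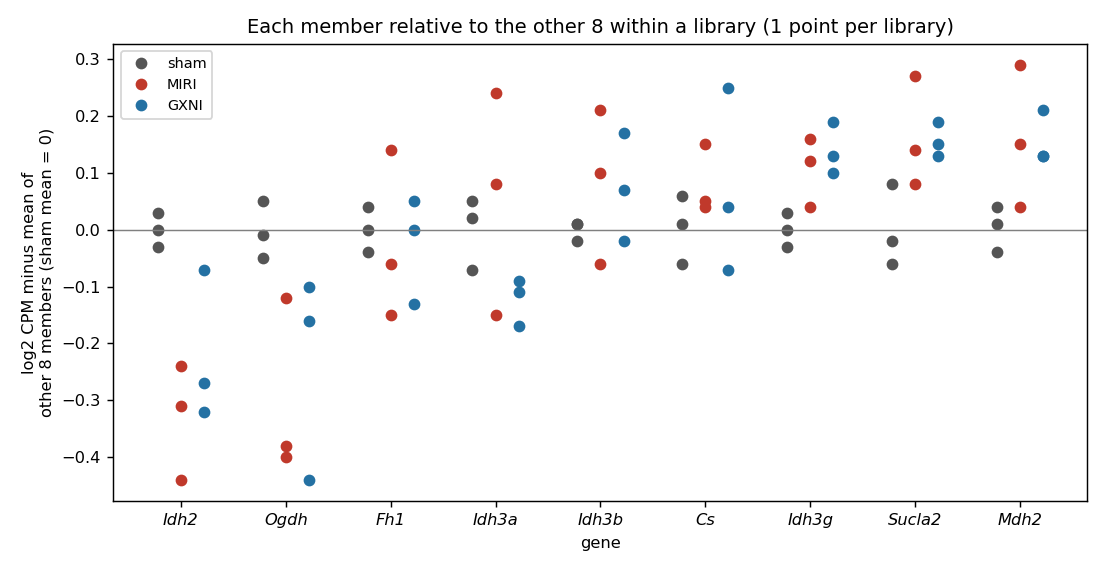
Log2 CPM of each gene minus the mean of the other 8 members in the same library, with the sham mean set to 0 (vertical axis), by gene (horizontal axis); each point is 1 library. All operated points of Idh2 and Ogdh lie below the sham points, down to -0.44, and those of Idh3g and Mdh2 lie above.

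Isoenzymes that do the same step with another cofactor were compared as ratios. The log2 ratio of Idh2 to Idh3a was 1.84, 1.76 and 1.74 in sham, 1.29 to 1.52 in MIRI, lowest in the library labelled MIRI 2, and 1.62, 1.64 and 1.82 in GXNI. It was lower by 0.22 on average in operated hearts, and GXNI 3 overlapped sham (two-sided exact permutation test of 6 against 3 libraries, p = 0.0714, adjusted p = 0.119 over 2 ratios, smallest p possible 0.0238). The log2 ratio of Sucla2 to Suclg2, the GTP-forming counterpart, was 1.71, 1.80 and 1.74 in sham, 1.81, 1.93 and 1.88 in MIRI and 1.90, 1.71 and 1.81 in GXNI. Its mean difference of 0.09 was within the overlap of the groups (two-sided exact permutation test of 6 against 3 libraries, p = 0.119, adjusted p = 0.119).

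Promoter windows of 300 bases (250 before to 50 after the transcription start) from RefSeq on GRCm38.p6 matched 8 of the 9 members, with Idh3a the one not matched and Ogdh having 6 windows. They are shown because the members moved together from library to library. Idh2, with the largest difference between MIRI and sham, and Sucla2, with the smallest, are printed first, followed by Idh3b and Idh3g, which each held a match. The RefSeq start of Sucla2 lies inside the gene as the other annotation used here draws it, so this window is not at the gene start given above. All run 5′ to 3′ on the gene's strand, with a match to a searched motif in capitals.
Idh2, chr7:80115301-80115600, reverse strand: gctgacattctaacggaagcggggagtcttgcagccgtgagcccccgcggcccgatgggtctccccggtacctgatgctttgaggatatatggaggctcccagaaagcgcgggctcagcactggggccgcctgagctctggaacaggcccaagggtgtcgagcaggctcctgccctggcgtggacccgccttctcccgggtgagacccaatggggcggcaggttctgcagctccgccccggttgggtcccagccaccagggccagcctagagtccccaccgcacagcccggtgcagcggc
Sucla2, chr14:73552536-73552835, forward strand: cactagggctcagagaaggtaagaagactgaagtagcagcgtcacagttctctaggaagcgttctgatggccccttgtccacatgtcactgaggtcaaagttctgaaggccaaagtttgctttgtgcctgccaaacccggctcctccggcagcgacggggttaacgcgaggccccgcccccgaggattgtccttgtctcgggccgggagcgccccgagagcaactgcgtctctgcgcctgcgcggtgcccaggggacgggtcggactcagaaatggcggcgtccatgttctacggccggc
Idh3b, chr2:130284402-130284701, reverse strand: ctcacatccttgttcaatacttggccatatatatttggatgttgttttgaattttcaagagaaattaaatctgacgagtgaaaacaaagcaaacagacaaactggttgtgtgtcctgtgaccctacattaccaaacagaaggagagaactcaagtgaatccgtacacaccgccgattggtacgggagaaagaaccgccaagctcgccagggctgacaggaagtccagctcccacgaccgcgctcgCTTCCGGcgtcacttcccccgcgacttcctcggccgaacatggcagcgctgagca
Idh3g, chrX:73786848-73787147, reverse strand: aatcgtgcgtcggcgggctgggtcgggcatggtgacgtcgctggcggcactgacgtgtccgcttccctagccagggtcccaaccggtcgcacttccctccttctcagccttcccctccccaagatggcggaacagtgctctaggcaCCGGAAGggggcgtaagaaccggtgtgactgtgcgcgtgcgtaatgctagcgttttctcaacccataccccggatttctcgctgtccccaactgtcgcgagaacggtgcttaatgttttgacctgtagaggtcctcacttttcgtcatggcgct
The motifs searched on either strand were AAGGTCA (the estrogen-related receptor half-site), GCATGCG (part of the NRF1 site) and CCGGAAG (the ETS core bound by GABP). CCGGAAG was held by Idh3b, starting 5 bases before the transcription start on the other strand, and by Idh3g, starting 104 bases before it, and 8.86% of 32851 RefSeq promoter windows held it. AAGGTCA was found in 1 of the 6 Ogdh windows and in 4.72% of all windows. GCATGCG was found in 2 overlapping Ogdh windows, where it reads on both strands of the same stretch, and in 3.58% of all windows. The windows of Cs, Idh2, Sucla2, Fh1 and Mdh2 held none of the 3 strings of letters.

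Further genes of the cycle that were read were Dlst and Dld (the other components of the 2-oxoglutarate dehydrogenase complex), Suclg1 and Suclg2 (succinyl-CoA ligase), Sdha to Sdhd (succinate dehydrogenase) and Ogdhl (an Ogdh relative). All 9 of these had lower means in MIRI than in sham, with a median log2 fold change of -0.26, and 0 of 9 were called. In GXNI against sham the median was -0.25 and 0 of 9 were called. For 6 of 9 all GXNI values were below all sham values, where 15.9% of all genes tested were. Sdhd had the largest difference there (-0.39 ± 0.15, edgeR adjusted p = 0.231) and Dlst the smallest (-0.15 ± 0.15). In GXNI against MIRI they ran from -0.13 (Sdhd) to 0.17 (Ogdhl) and 0 were called. Without the library labelled MIRI 2, all 9 fell in MIRI at an edgeR adjusted p of at most 0.05, where 20.3% of all genes fell by that rule. Ogdhl (-0.86 ± 0.11), Dld (-0.63 ± 0.12), Sdha (-0.59 ± 0.12) and Sdhd (-0.59 ± 0.10) were called lower, where 13.3% of all genes were. Without the libraries labelled MIRI 2 and GXNI 3, Ogdhl was called higher in GXNI than in MIRI (0.92 ± 0.22, edgeR adjusted p = 0.188), where 1.52% of all genes were. Ogdhl had 231, 209 and 199 CPM in sham, 116, 230 and 118 in MIRI and 252, 185 and 84.3 in GXNI.

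Enzymes outside the mitochondria that act on metabolites of the cycle included Idh1, which was called with the labels as given. Idh1, the cytosolic NADP+-dependent isocitrate dehydrogenase, had 60.6, 73.4 and 68.2 CPM in sham, 26.5, 48.2 and 27.2 in MIRI and 41.1, 39.9 and 21.5 in GXNI. All 6 operated hearts were below all 3 sham hearts. It fell by 0.98 ± 0.25 on the log2 scale in MIRI (1.97-fold, edgeR adjusted p = 0.09), and in GXNI the log2 fold change was -0.97 ± 0.25 (1.96-fold, edgeR adjusted p = 0.219). Of all genes tested, 2.82% were called lower in MIRI and 1.54% in GXNI. Of the 5 such enzymes (Idh1, Aco1, Mdh1, Acly and Got1), the other 4 were not called in any comparison with all libraries. Got1, the cytosolic aspartate aminotransferase, fell as well when the library labelled MIRI 2 was left out (-0.65 ± 0.12, edgeR adjusted p = 0.00433).

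Of 10 genes of the pyruvate dehydrogenase complex, which feeds the cycle with acetyl-CoA, and of its kinases and phosphatases, 0 were called by edgeR in MIRI or GXNI against sham, while DESeq2 called Pdp2 lower in both and Pdk3 higher in MIRI. Of all genes, DESeq2 called 5.34% higher in MIRI, and its share called lower is not given here. Pdp2, a phosphatase that activates the complex, was called lower by edgeR in all operated hearts against sham (-1.70 ± 0.47, edgeR adjusted p = 0.0878), where 2.85% of all genes were. Pdp2 had 34.2, 31.5 and 44.7 CPM in sham, 6.79, 21.2 and 5.33 in MIRI and 19.2, 11.1 and 4.24 in GXNI, with no overlap. In MIRI without the library labelled MIRI 2, 3 of 10 were called lower (Dlat, Pdk2 and Pdp2) and 1 higher (Pdk3). Of all genes, 13.3% were called lower and 16.9% higher in that fit. Of 11 anaplerotic enzymes and carriers, which refill or drain the cycle, 0 were called in any comparison with all libraries. Me3, Slc25a12 and Slc25a13 were called lower and Me2 higher in MIRI when the library labelled MIRI 2 was left out. Of 10 transcriptional regulators of mitochondrial genes, 0 were called in MIRI by edgeR or DESeq2. In GXNI against sham DESeq2 called Ppargc1b lower, and edgeR, like DESeq2, called Perm1 (-1.04 ± 0.28, edgeR adjusted p = 0.219) and Esrrb (-0.88 ± 0.19, edgeR adjusted p = 0.219) lower. By edgeR this makes 2 of 10 regulators, where 1.54% of all genes were called lower. In the same way, 6 of 10 regulators were called lower in MIRI once the library labelled MIRI 2 was left out, where 13.3% of all genes were. They were Esrra, Esrrb, Esrrg, Perm1, Ppara and Ppargc1a. Of 13 protein genes of the mitochondrial DNA, which encode respiratory chain subunits, 12 had a DESeq2 log2 fold change below 0 in MIRI against sham. Their median was -0.25, beside 0.0027 over all genes tested. In GXNI against sham 12 were below 0 as well, with a median of -0.27, beside 0.04 over all genes tested. The share of all genes below 0 is not given here. By edgeR mt-Nd4l was called lower in GXNI (-0.60 ± 0.16, edgeR adjusted p = 0.219), where 1.54% of all genes were. In MIRI 0 were called, where 2.82% of all genes were called lower.

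The mean of the heart muscle markers moved with that of the members, and the mean of the neutrophil markers, given below, moved the other way. The mean log2 CPM of 10 cardiomyocyte markers, relative to sham, was -0.60, 0.08 and -0.60 in MIRI 1 to 3 and -0.17, -0.38 and -0.63 in GXNI 1 to 3. The mean of the 9 members was -0.57, 0.14 and -0.55 in MIRI and -0.09, -0.24 and -0.59 in GXNI. The difference of the members from the cardiomyocyte markers was 0.03 to 0.14 in the 6 operated hearts and -0.05 to 0.03 in sham, so the mean of the members was not lower than in sham relative to these markers in any operated heart. Single members differed from that mean. Relative to the markers, Idh2 was at -0.36, -0.22 and -0.16 in MIRI and -0.17, -0.14 and -0.02 in GXNI, against -0.08 to 0.05 in sham, and was below every sham heart in 5 of 6. Ogdh was at -0.33, -0.04 and -0.29 in MIRI and -0.06, 0.05 and -0.35 in GXNI, against -0.06 to 0.08 in sham. Idh3g, Sucla2 and Mdh2 were above every sham heart in all 6 operated hearts on this scale. The markers were not of one kind: Myh6, the main adult myosin, had 14474 to 16464 CPM in sham, 7398, 13983 and 6598 in MIRI and 12580, 8247 and 7048 in GXNI, whereas Actc1, cardiac actin, had 4120 to 5529 CPM in sham and reached 10465 in MIRI 3. Of the 10 cardiomyocyte markers, 0 were called by edgeR in either group against sham, and DESeq2 called Actc1 higher in MIRI and Myh6 lower in GXNI. By edgeR 5 of 10 were called lower in MIRI without the library labelled MIRI 2, where 13.3% of all genes were.

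The 10 neutrophil markers had a mean log2 CPM relative to sham of 3.98, -0.57 and 3.92 in MIRI and 0.24, 2.40 and 3.92 in GXNI, with -0.80 to 0.49 among the sham hearts, and none was at 0 in any library. Their summed level was 152 to 205 CPM in sham, 231 to 1133 in MIRI and 622 to 879 in GXNI, but Lcn2, which other cells also make, held 575 CPM of it in GXNI 1 and 441 in GXNI 2. Without Lcn2 the other 9 summed to 27.5 to 58.1 CPM in sham, to 745, 26.7 and 675 in MIRI and to 46.6, 228 and 747 in GXNI. The libraries with the least TCA cycle mRNA, MIRI 1, MIRI 3 and GXNI 3, had the most neutrophil mRNA. By edgeR 2 of 10 were called higher in MIRI against sham (S100a8 and Trem1) and 2 of 10 in GXNI against sham (S100a8 and Clec4d), where 6.15% and 2.67% of all genes were called higher. DESeq2 called 8 of 10 higher in each, where 5.34% and 3.55% of all genes were. By edgeR without the library labelled MIRI 2, 10 of 10 were called higher in MIRI, where 16.9% of all genes were. With all libraries, 0 of 10 macrophage and 0 of 7 endothelial markers were called by edgeR in MIRI or GXNI against sham, while DESeq2 called Cd14 and Cldn5 higher in both. Of the 10 macrophage markers, 5 had an edgeR log2 fold change below 0 in MIRI against sham. In MIRI without the library labelled MIRI 2, edgeR called Ccr2, Cd14, Cd68 and Cldn5 higher. In GXNI against sham without GXNI 1, edgeR called C1qa, C1qb and C1qc lower, where 7.08% of all genes were, and Cd14 and Cd68 higher. With all libraries again, of 8 fibroblast markers Postn was called higher in MIRI. Of 6 atrial markers, 4 passed the filter, and in MIRI Nppa, a natriuretic peptide that stressed ventricles also make, was called higher and Nr2f2 lower, with Sln, Myl7 and Bmp10 at 0 to 1.76 CPM. Of 6 mesothelial markers Wt1 was called higher by edgeR in both groups against sham, and DESeq2 also called Lrrn4 and Msln lower in MIRI. Of 6 adipocyte markers 1 passed the edgeR filter and was not called, and DESeq2 called Cidec higher in MIRI. The part that cell composition had in the members' values was not tested.

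**Figure D5:**
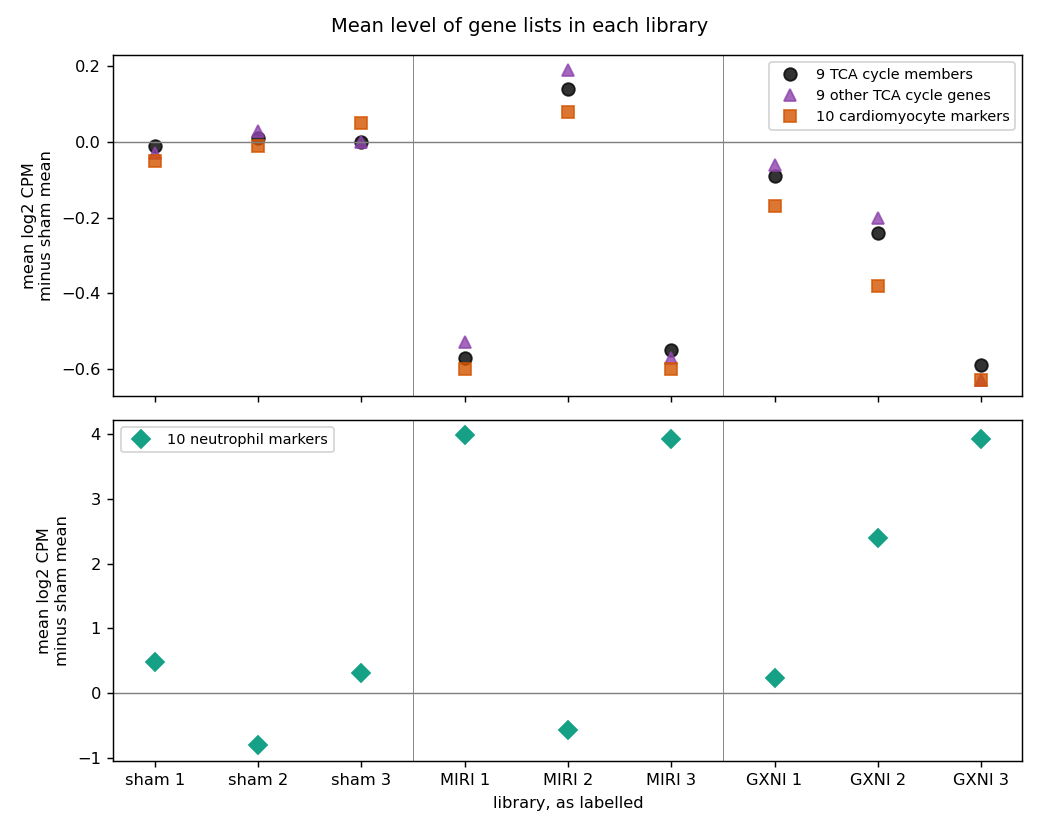
Mean log2 CPM of gene lists minus the sham mean (vertical axes) in each library as labelled (horizontal axis); the upper panel shows the 9 members, 9 other TCA cycle genes and 10 cardiomyocyte markers, the lower panel 10 neutrophil markers. MIRI 1, MIRI 3 and GXNI 3 lie between -0.63 and -0.53 in the upper panel and between 3.92 and 3.98 in the lower, and the library labelled MIRI 2 lies at 0.14 for the members and at -0.57 for the neutrophil markers.

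The genes whose profile over the 9 libraries was most like the mean profile of the members were other mitochondrial genes. Likeness was the mean absolute difference of log2 CPM after each gene had been centred on its own mean, over 8695 genes with a mean of at least 10 CPM, for which the median difference was 0.314. Slc25a3, the mitochondrial phosphate carrier, was nearest with 0.0272, followed by Sod2 (superoxide dismutase of the matrix) with 0.0345, Atp5a1 (a subunit of ATP synthase) with 0.0366, Vdac1 (a channel of the outer membrane) with 0.0367 and Ndufv1 (a subunit of complex I) with 0.0369. Slc25a3 had 1352, 1376 and 1426 CPM in sham, 910, 1579 and 969 in MIRI and 1313, 1170 and 907 in GXNI. By the same measure, against the mean of the other 8, the members themselves ran from 0.0644 (Idh3g) to 0.148 (Idh2) and 0.155 (Ogdh). Idh2 and Ogdh thus stood furthest from the shared profile. The plot of each gene against the other 8 rests on the same values, so it is no separate support for this.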

How the data were processed

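RNA-seq of heart tissue was measured in 3 sham, 3 MIRI and 3 GXNI libraries. Per the study's methods and the labels, reads of low quality or with adapters were dropped and the rest were placed on mm10 by HISAT2. The authors deposited raw whole-number counts per gene from featureCounts (Subread). Versions, annotation release and strand setting are not given in the sources used here. Gene symbols and coordinates are from GENCODE M21 (GRCm38), and 54409 of 54532 identifiers matched. Groups follow the labels. From the counts, each comparison was fitted over all genes with edgeR 4.0.16 in R 4.3.3 (TMM, default filter on low counts, quasi-likelihood F test, no covariates). Adjusted p-values are Benjamini-Hochberg over all genes tested. The SE is the log2 fold change divided by the square root of F. CPM used a prior count of 0.5 on the log2 scale only. Ratios were tested by exact permutation.

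In simulated counts for MIRI against sham (14587 genes), edgeR called 100 of 100 genes changed by 2 on the log2 scale, 96 of 100 changed by 1 and 0.396% of unchanged genes. These counts were drawn from the sham means with the same fixed dispersion for every gene in both groups. They did not carry the wider spread among the operated hearts, so these shares check the fit and do not give the power of the real comparison. With 17119454 to 22811295 counts per library, 3 counts correspond to 0.1315 to 0.1752 CPM, far below every member. DESeq2 1.42.0 (the tool the authors used), RLE scaling, no mitochondrial chromosome, no filter, 1 fit of 9 libraries, a replicate block, an adjusted threshold and each replicate left out were alternatives, and leaving out the libraries labelled MIRI 2 and GXNI 3 together was added after the values were seen.

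The members and all gene lists were chosen with earlier results of these data known. Named were all members, 9 other TCA cycle genes, the called genes of further lists (pyruvate dehydrogenase, cytosolic enzymes of cycle metabolites, anaplerosis, regulators, mitochondrial DNA and cell type markers) and the 5 genes most alike. Where the text names or prints a gene outside this rule (the promoters of Idh3b and Idh3g, Pdk3, Ppargc1b and the other genes called by DESeq2 alone, Myh6, Actc1, Lcn2, Sln, Myl7 and Bmp10), it was chosen after its values were seen. Since no member was called in MIRI against sham, the promoter shown for the largest fall is that of the largest difference. Another gene of the planned list is not reported here. No libraries were identical or within sampling noise of each other.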

Additional observations from a re-analysis of the deposited data

How the results depend on the processing

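With DESeq2 the number of genes called in either direction went from 1313 to 2251 in MIRI against sham, from 618 to 1401 in GXNI against sham, from 3 to 11 in GXNI against MIRI and from 1274 to 2196 in all operated hearts against sham. With no filter on low counts it was 2406, 1425 and 10 in the first 3 of these. With all 9 libraries in 1 fit it was 800 for MIRI with sham and 9 for GXNI with MIRI. At an adjusted p of at most 0.05 by edgeR it was 2, 0, 0 and 9. The causes were not tested. Leaving out 1 library gave 514 (without sham 2) to 4592 (without MIRI 2) genes in MIRI against sham, 175 (without sham 2) to 2665 (without GXNI 1) in GXNI against sham, and 463 (without sham 2) to 2298 (without GXNI 1) in all operated hearts against sham. In GXNI against MIRI it gave 1 (without GXNI 2) to 12 (without MIRI 2), and 748 without MIRI 2 and GXNI 3 together.

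Members called lower went from 0 to 3 in MIRI against sham without MIRI 2, and from 0 to 1 in all operated hearts without MIRI 2, with or without GXNI 3. In MIRI against sham, Idh3a ranged from -0.59 to 0.0039 (without MIRI 1) when 1 library was left out. In GXNI against MIRI, where no member was called, the sign of the log2 fold change was not fixed. Cs was -0.01 with DESeq2, -0.0028 with RLE scaling and -0.01 in 1 fit of 9 libraries, and Sucla2 was -0.01, -0.0013 and -0.0045. Idh3b was 0.0019 with no filter. Over the fits that left out 1 library, or MIRI 2 and GXNI 3 together, Cs ranged from -0.21 to 0.51, Idh2 from -0.08 to 0.45, Idh3a from -0.39 to 0.33, Idh3b from -0.12 to 0.29, Idh3g from -0.09 to 0.39, Ogdh from -0.12 to 0.65, Sucla2 from -0.14 to 0.37, Fh1 from -0.18 to 0.35 and Mdh2 from -0.11 to 0.37.

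With the replicate number as a block, 1065, 573, 3 and 1501 genes were called in MIRI against sham, GXNI against sham, GXNI against MIRI and all operated hearts against sham, with 0 members in each, and Idh3b (0.02) and Fh1 (0.03) changed sign in GXNI against MIRI. Deviations of same-numbered libraries correlated between -0.552 and 0.843, so the numbers were not taken to pair the animals.

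For every member the operated hearts spread more widely than the sham hearts. With 3 libraries a group, the precision is limited by the spread between hearts and not by counts. The counts exceeded 3 per library by far for every member.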

Other observations

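Among genes next to the cycle, Pdk4 varied widely among the sham hearts themselves, whereas Pdk3 did not. Pdk4, the kinase that switches off pyruvate dehydrogenase and that rises with fasting and fatty acid use, had 1905, 234 and 1292 CPM in sham 1 to 3, 746, 492 and 387 in MIRI and 1034, 609 and 687 in GXNI. Its spread in sham took in the operated hearts. Pdk3, a scarcer kinase of the complex, had 2.15, 2.33 and 2.19 CPM in sham, 4.7, 2.53 and 7.19 in MIRI and 3.23, 3.12 and 6.32 in GXNI.

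Ppargc1a, a coactivator of mitochondrial genes, had 159, 103 and 159 CPM in sham, 54.4, 127 and 33 in MIRI and 154, 84.5 and 22.8 in GXNI. Esrra, a receptor it acts with, had 187 to 193 CPM in sham, 124, 213 and 124 in MIRI and 163, 159 and 99.7 in GXNI. Gabpa and Tfam stayed closer to sham, with 43.7 to 53.1 and 27.4 to 42.5 CPM in the 6 operated hearts against 53.5 to 56 and 32.4 to 37.4 in sham. For Gabpa the highest operated value lay just below the lowest sham value, whereas Tfam overlapped sham. These genes were chosen after their values were seen.

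GXNI 1 stood apart in the 6 mesothelial markers. Their mean log2 CPM relative to sham was 2.37 there, against -0.60 to 0.79 among sham hearts and -3.45 to -0.42 in the other operated hearts. Some of these markers were at 0 in MIRI 1 and GXNI 3. One of them, Msln, had 27.4 CPM in GXNI 1 against 2.62 to 8.76 in sham and 0.232 to 3.12 in the other operated hearts.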
